A study of Mus musculus with 2 samples.

Results

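Tcf7, Lef1, Tbx21, Eomes, Tox, Bach2 and Bcl6, 7 transcription factors that direct the fate of T and NK cells, were described in lymphocytes of mouse mammary tumours. They are 7 of the 468 genes that a targeted single-cell panel counted in these tumours and were chosen by name. None of the 7 genes was used to gate a cell. Of the 7 genes, 6 were counted in all 4 cell tables of the series. Tox was analysed in the 3 tables that hold all 468 genes and not in the fourth, which holds 396 of them.

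The study placed 4T1 cells, a mouse mammary carcinoma line, in the mammary fat pad of female BALB/c mice of 8 weeks. Antibody treatment began once tumours had formed, at 7 days and about 70 mm3, with 6 mice in each of 4 arms. Cells of 2 tumours per arm were captured with the BD Rhapsody system, which tags the cells of each arm and counts transcripts of a fixed gene panel. Epithelial (EPCAM-positive) and immune (EPCAM-negative) cells were recombined at 1 to 4.

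The anti-PD-1 pool is the cartridge with tags 3 and 4, which holds cells of mice given anti-PD-1 antibody alone (clone RMP1-14) and of mice given it together with anti-Siglec-E antibody. The no-anti-PD-1 pool is the cartridge with tags 1 and 2, which holds cells of mice given a rat IgG2a isotype control and of mice given anti-Siglec-E antibody alone. The labels do not tie a tag to an arm inside a cartridge, so values are given by tag and never by arm. PD-1 is the protein of the gene Pdcd1 and restrains activated T cells, and Siglec-E restrains mouse myeloid cells. All mice carried the same tumour line, and the tables do not separate the tumours pooled under a tag.

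Naive and memory T cells depend on Tcf7 and its closest relative Lef1, DNA-binding HMG box factors of the Wnt pathway that keep T cells able to renew. Tbx21 (T-bet) and Eomes are related T-box factors: T-bet drives interferon gamma and killing programmes in T and NK cells, and Eomes acts in memory CD8 T cells and NK cells. Tox is an HMG box protein that sustains T cells under long-lasting antigen, the state called exhaustion. Bach2 is a repressor that holds back effector differentiation and supports regulatory T cells. Bcl6 is a repressor on which follicular helper T cells and germinal centre B cells depend. In tumours, CD8 T cells with Tcf7 are known as a self-renewing pool that gives rise to PD-1-high effector and exhausted cells.

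The 4 tables held 12018 cells in all, with medians of 1262 to 1463 molecules of the 396 shared genes per cell. The tables of the 2 cartridges had 37 cell indices in common over all pairs of tags, and the tags within a cartridge had 0. Classes were gated on marker genes: CD8 T cells (274 cells) by Cd3 and Cd8 genes without Cd4, CD4 T cells (323) by Cd3 genes and Cd4 without Cd8, and NK cells (142) by at least 3 NK genes without Cd3. CD8 T cells were split into 190 with a Pdcd1 molecule (Pdcd1-positive) and 84 with none (Pdcd1-0), and CD4 T cells into 125 with a Foxp3 molecule (Foxp3-positive) and 198 with none (Foxp3-0). Foxp3 encodes the defining factor of regulatory T cells. Trac, the T cell receptor alpha constant gene, was found in 4.60 to 5.88% of the NK cells of tags 3, 4 and 2 and in 0 of the 17 of tag 1. Trbc1, which NK cells can transcribe without a rearranged receptor, was found in 76.5 to 85.7% of NK cells and the gamma delta gene Trdc in 35.3 to 52.4%, so innate-like T cells among them cannot be told apart. Neutrophils (4902 cells) served as the background for shares of cells with a molecule.

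Levels are molecules of a gene per 1000000 molecules of the 396 shared genes (CPM), summed over the cells of a class within a tag, and their 95% intervals are exact Poisson intervals. Shares of cells with a molecule carry exact Clopper-Pearson 95% intervals. Both intervals cover counting error only. With 1 sample in each pool the pools could not be tested. Classes were compared within tags, which carry different treatment arms and are not replicates of a group, and no test was run on them. Differences are described by a fixed rule of size. Between classes a gene was called higher or lower where the equal-weight means over tags differed by at least 1.5-fold, every tag with at least 10 cells in both classes agreed in direction, and the gene had at least 30 molecules. These molecules were counted over both classes and all tags, also tags left out for too few cells. In summed levels, fewer cells with a transcript and fewer transcripts per cell cannot be told apart, so shares of cells are given beside them.

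**Figure D1:**
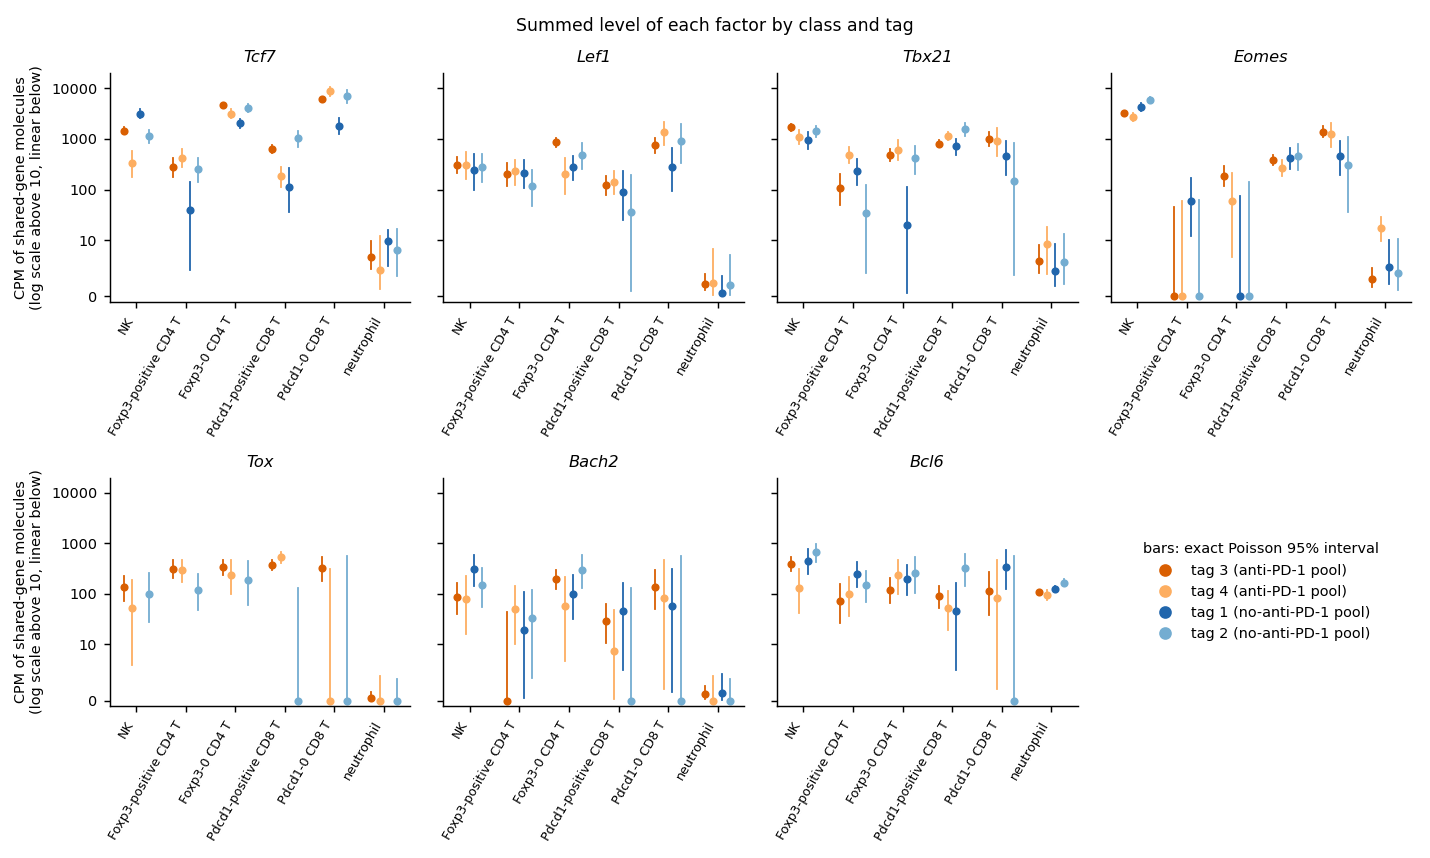
Level of each factor (CPM, log scale above 10 and linear below) in NK cells, the CD4 and CD8 T cell classes and neutrophils. Points are tags, coloured by pool, and bars are exact Poisson 95% intervals; Tcf7 stands at 1818 CPM or more in every tag of the Pdcd1-0 and Foxp3-0 cells and Eomes at 2736 CPM or more in every tag of the NK cells.

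Promoters of these genes were searched for the letters bound by the Tcf7 and Lef1 proteins, CTTTGA on either strand (TCAAAG on the other), because both genes were lower in Pdcd1-positive than in Pdcd1-0 CD8 T cells. RefSeq windows of 300 bases (250 before to 50 after a transcript start, GRCm38.p6) were held for 6 of the 7 genes, 11 windows in all, with none for Tox. The letters are in 16% of the 32851 mouse windows of that length. They occur in 3 of the 11: 2 times in an internal Lef1 start, and 1 time each in a Bach2 start and in the downstream of 2 Bcl6 starts. The windows with matches are shown with the matches in capitals, beside a Tcf7 window, which holds none: Tcf7 at chr11:52282546-52282845 (minus strand), Lef1 at chr3:131156044-131156343 (plus strand), Bach2 at chr4:32417185-32417484 (plus strand) and Bcl6 at chr16:23981234-23981533 (minus strand).
Tcf7: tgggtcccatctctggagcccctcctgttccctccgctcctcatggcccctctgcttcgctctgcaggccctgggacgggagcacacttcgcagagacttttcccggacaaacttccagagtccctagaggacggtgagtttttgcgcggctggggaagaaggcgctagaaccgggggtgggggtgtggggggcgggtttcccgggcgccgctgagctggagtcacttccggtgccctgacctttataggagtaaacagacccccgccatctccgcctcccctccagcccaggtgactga
Lef1: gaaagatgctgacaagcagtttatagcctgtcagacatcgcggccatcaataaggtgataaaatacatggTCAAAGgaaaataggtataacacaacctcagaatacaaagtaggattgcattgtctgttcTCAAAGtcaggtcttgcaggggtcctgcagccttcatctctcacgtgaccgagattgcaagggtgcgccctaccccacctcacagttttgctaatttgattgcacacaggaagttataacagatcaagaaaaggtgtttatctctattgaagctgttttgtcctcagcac
Bach2: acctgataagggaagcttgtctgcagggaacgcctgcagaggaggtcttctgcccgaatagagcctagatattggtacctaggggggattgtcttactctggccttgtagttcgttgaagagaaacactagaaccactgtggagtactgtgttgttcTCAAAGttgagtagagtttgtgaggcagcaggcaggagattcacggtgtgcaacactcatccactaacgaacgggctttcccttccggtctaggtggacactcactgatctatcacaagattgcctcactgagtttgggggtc
Bcl6: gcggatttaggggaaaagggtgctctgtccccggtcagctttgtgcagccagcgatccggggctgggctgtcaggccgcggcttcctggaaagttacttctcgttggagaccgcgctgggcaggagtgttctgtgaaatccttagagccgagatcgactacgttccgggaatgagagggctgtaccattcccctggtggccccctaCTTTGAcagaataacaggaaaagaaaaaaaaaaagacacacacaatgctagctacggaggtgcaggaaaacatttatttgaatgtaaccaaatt
The letters TCACACC, bound by T-box factors such as Tbx21 and Eomes, are in 3.98% of mouse windows when both strands are read. Runx factors bind the letters TGTGGT, which are in 16.8% of windows on either strand. Neither was found in any of the 11 windows. A match marks letters in a window and not a bound site.

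Pdcd1-positive CD8 T cells held far less Tcf7 and Lef1 than Pdcd1-0 CD8 T cells of the same tags, less Eomes and more Tox, and Tbx21 was not called. The calls of Eomes and Tox were both lost when tags with 5 cells were admitted. Bcl6 was called lower on few molecules, near its level in neutrophils. Of the 6 genes with enough molecules, 1 was called higher and 4 lower. Of the 324 genes tested, 21.6% were called higher and 14.8% lower in Pdcd1-positive cells. The median log2 ratio of the 6 genes was -1.53, against -0.03 over all 324.

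Tcf7 (Ensembl ENSMUSG00000000782.15, chr11:52252371-52283014 on GRCm38, minus strand) stood at 640.8 CPM (interval 535 to 761) and 184 CPM (114 to 282) in Pdcd1-positive cells of tags 3 and 4, and at 112 CPM (36.4 to 262) and 1023 CPM (685 to 1469) in tags 1 and 2. In Pdcd1-0 cells it stood at 6112 CPM (5398 to 6894) and 8764.5 CPM in tags 3 and 4, and at 1818 CPM (1244 to 2567) and 7080.4 CPM in tags 1 and 2. Every Pdcd1-0 value lay above every Pdcd1-positive value, and within each tag the intervals of the classes did not overlap. Over the 3 tags with at least 10 cells of both kinds (3, 4 and 1), the mean was 312 CPM in Pdcd1-positive and 5565 CPM in Pdcd1-0 cells, a log2 ratio of -4.15, 17.8-fold lower. A Tcf7 molecule was found in 32 of 190 Pdcd1-positive cells (16.8%) and in 63 of 84 Pdcd1-0 cells (75.0%), against 0.898% of neutrophils.

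Sequencing depth ran against that difference: Pdcd1-positive cells had a median of 1341.5 molecules and Pdcd1-0 cells 733, with 1286 in neutrophils. When each cell was thinned to 500 molecules, Tcf7 was left in 11.4% of 184 Pdcd1-positive cells (interval 7.21 to 16.9) and 66.7% of 66 Pdcd1-0 cells (54.0 to 77.8), against 0.321% of neutrophils. Cells under 500 molecules, 6 of the Pdcd1-positive and 18 of the Pdcd1-0 cells, were left out. Tcf7 in Pdcd1-positive cells was unevenly spread. In tag 1 all 5 molecules were in 1 of 13 cells, and in tag 3 a single cell held 26 of 130. By tag, 21.3 and 7.02% of Pdcd1-positive cells in tags 3 and 4 and 7.69 and 33.3% in tags 1 and 2 carried Tcf7.

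Lef1 (chr3:131110471-131224356, plus strand) followed Tcf7. Pdcd1-positive cells had 123 and 140.5 CPM in tags 3 and 4 and 89.7 and 35.3 CPM in tags 1 and 2. Pdcd1-0 cells had 761 and 1348 CPM in tags 3 and 4 and 284 and 904 CPM in tags 1 and 2, all above the highest Pdcd1-positive value. The means over tags 3, 4 and 1 were 118 and 798 CPM, a log2 ratio of -2.76, 6.77-fold lower in Pdcd1-positive cells. The share of cells with Lef1 was 15.8% of Pdcd1-positive and 41.7% of Pdcd1-0 cells, and 7.07 and 27.3% after thinning, against 0.265% of neutrophils before thinning and 0.0641% after.

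Of the T-box pair, Eomes was called lower and Tbx21 was not called. Tbx21 (chr11:97098071-97115331, minus strand) had 813 and 1142 CPM in Pdcd1-positive cells of tags 3 and 4 and 717 and 1552 CPM in tags 1 and 2. In Pdcd1-0 cells it had 1015 and 927 CPM in tags 3 and 4 and 455 and 151 CPM in tags 1 and 2, the last from 1 molecule in 6 cells. Tag 3 was lower in Pdcd1-positive cells and the other tags were higher, so the gene was not called (log2 ratio 0.16). More Pdcd1-positive than Pdcd1-0 cells carried Tbx21, 65.8 against 40.5%, and after thinning 35.9% (28.9 to 43.3) against 27.3% (17.03 to 39.6), with overlapping intervals.

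Eomes (chr9:118478212-118486132, plus strand) had 384 and 272 CPM in Pdcd1-positive cells of tags 3 and 4 and 426 and 459 CPM in tags 1 and 2. Its level in Pdcd1-0 cells was 1407 and 1264 CPM in tags 3 and 4 and 455 and 301 CPM in tags 1 and 2. The classes were well apart in tags 3 and 4 and close in tags 1 and 2. The mean over tags 3, 4 and 1 was 361 CPM in Pdcd1-positive and 1042 CPM in Pdcd1-0 cells (log2 ratio -1.53), and the call was lost when tags with 5 cells were admitted (-1.15) and when the cells with the most molecules were removed (-1.37). The share of cells with Eomes was almost the same, 32.6 against 33.3% (neutrophils 0.428%), and 17.9 against 27.3% after thinning, with overlapping intervals.

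Tox (chr4:6686353-6991557, minus strand) was the only gene of the 7 called higher in Pdcd1-positive cells. It had 375 and 536 CPM in Pdcd1-positive cells of tags 3 and 4 and 0 in the 12 cells of tag 2, where 3 molecules would be 106 CPM. In Pdcd1-0 cells it had 323 CPM in tag 3 and 0 in the 16 cells of tag 4 and the 6 cells of tag 2, where 3 molecules would be 253 and 452 CPM. Over tags 3 and 4 the means were 455 and 161 CPM (log2 ratio 1.495), a call that rested on tag 4: the log2 ratio was 0.21 in tag 3 alone. The call was also lost when tags with 5 cells were admitted, since tag 2 had no Tox. Tox was found in 57 of 177 Pdcd1-positive cells (32.2%) and in 9 of 74 Pdcd1-0 cells (12.2%), and after thinning in 16.96% (11.7 to 23.4) and 8.77% (2.91 to 19.3), against 0.0509% of neutrophils before thinning.

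The repressors were sparse in CD8 T cells. Bcl6 (chr16:23965052-23988852, minus strand) had 88.7 and 52.7 CPM in Pdcd1-positive cells of tags 3 and 4 and 44.8 and 318 CPM in tags 1 and 2, where 8 of the 9 molecules of tag 2 were in 1 cell. In Pdcd1-0 cells it had 115 and 84.3 CPM in tags 3 and 4, 341 CPM in tag 1 and 0 in tag 2. Its call, a log2 ratio of -1.54, rested on tag 1, without which the ratio was -0.50. The call was also lost with tags of 5 cells admitted (-0.10), without cells that also carried another lineage (-0.50), without tag 3 (-2.12) and without the cells with the most molecules (-1.85). Bcl6 in CD8 T cells was at the level of neutrophils, 96.1 to 166 CPM: 11.7% of CD8 T cells and 14.4% of neutrophils had a molecule, and 5.6 and 5.99% after thinning. Macrophages (38.5%) and epithelial cells (39.5%) carried it more often. Whether the Bcl6 molecules of CD8 T cells came from these cells or from other cells was not tested, and no expression is read from a share at that of neutrophils. Bach2 (chr4:32238804-32586108, plus strand) had 17 molecules over all 274 CD8 T cells, 9 in Pdcd1-positive and 8 in Pdcd1-0 cells, and was not tested.

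**Figure D2:**
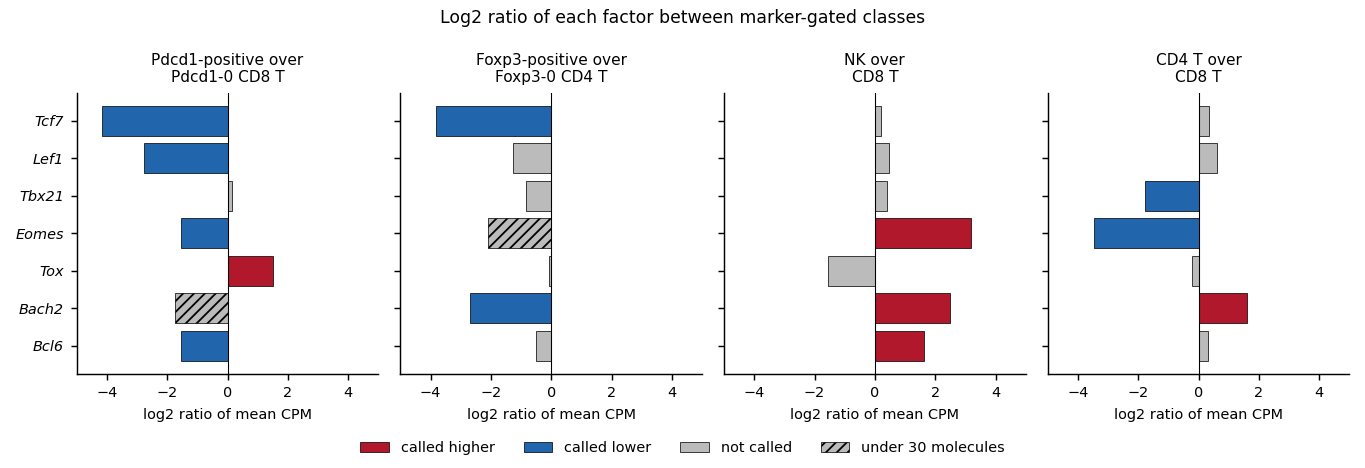
Log2 ratio of the equal-weight mean CPM of each factor in the 4 comparisons of classes, the first-named class over the second. Red bars were called higher, blue bars lower, grey bars not called, and hatched bars rest on under 30 molecules; Tcf7 is lower by 4.15 in Pdcd1-positive CD8 T cells and by 3.83 in Foxp3-positive CD4 T cells, and Eomes is higher by 3.18 in NK cells.

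Genes of related roles were read on the same cells from lists. Of 7 naive and memory genes tested, 3 were called lower in Pdcd1-positive cells (among them Ccr7, for homing to lymph nodes, and Il7r, for survival) and 1 higher (Il2rb), with a median log2 ratio of -0.71. Of 6 other inhibitory receptor genes, 2 were called higher (Havcr2 and Entpd1) and 0 lower, with a median of 0.49. Of 13 effector genes, 4 were called higher (Gzmb, Prf1, Ifng and Nkg7) and 1 lower (the chemokine Ccl5), with a median of 0.67. Transcripts of other cell types were not equal in the classes. Summed macrophage genes (7 of 8 on the panel, all detected in Pdcd1-positive cells) reached 24779 and 23639 CPM in Pdcd1-positive cells of tags 3 and 4 and 58173 and 7832 CPM in tags 1 and 2, against 8234 and 25367 CPM and 6251 and 1205 CPM in Pdcd1-0 cells. Dendritic cell genes (4 of 5 on the panel) summed to 21418 and 13312 CPM in Pdcd1-positive cells of tags 3 and 4 and 19570 and 8819.9 CPM in tags 1 and 2, against 507 and 4804 CPM and 49551 and 603 CPM in Pdcd1-0 cells, with Flt3 at 0 in every tag of the Pdcd1-positive cells. The 5 B cell genes summed to 35.3 to 44.8 CPM in Pdcd1-positive cells, with Ms4a1 at 0 in every tag, against 415 and 0 CPM in Pdcd1-0 cells of tags 3 and 4 and 1989 and 301 CPM in those of tags 1 and 2. Neutrophil genes were the lower in Pdcd1-positive cells of every tag, at 14906 and 5945 CPM in tags 3 and 4 and 6187 and 7162 CPM in tags 1 and 2, against 18474 and 16181 CPM and 14774 and 10997 CPM in Pdcd1-0 cells. Mast cell genes summed to 22755 CPM in the Pdcd1-positive cells of tag 2, to 0 to 307 CPM in those of the other tags and to 0 in all Pdcd1-0 cells. The part of these transcripts in the differences was not tested. The calls of Tcf7, Lef1, Eomes and Tox remained when cells that also carried B cell, macrophage or epithelial genes were removed. That removal used no dendritic, neutrophil or mast cell gene and does not bear on those sums.

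Among CD4 T cells, Foxp3-positive cells had far less Tcf7 and less Bach2 than Foxp3-0 cells, and the other factors were not called. Of the 6 genes tested, 0 were called higher and 2 lower, while 10.8% of the 334 genes tested were called higher and 16.2% lower in Foxp3-positive cells. The median log2 ratio of the 6 genes was -1.04, against -0.08 over all genes.

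Tcf7 had 277 and 425 CPM in Foxp3-positive cells of tags 3 and 4 and 38.9 and 253 CPM in tags 1 and 2. In Foxp3-0 cells it had 4791 and 3182 CPM in tags 3 and 4 and 2043 and 4083 CPM in tags 1 and 2. The classes did not overlap, and the lowest Foxp3-0 tag lay above the highest Foxp3-positive tag. The means were 248 and 3525 CPM (log2 ratio -3.83), 14.2-fold lower in Foxp3-positive cells. Tcf7 was found in 21 of 125 Foxp3-positive cells (16.8%) and 149 of 198 Foxp3-0 cells (75.3%), and after thinning in 5.71% (2.13 to 12.0) and 64.7% (55.9 to 72.7). Foxp3-positive cells were the deeper class, with a median of 986 molecules against 628.5.

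Bach2 had 0 and 49.0 CPM in Foxp3-positive cells of tags 3 and 4 and 19.4 and 33.7 CPM in tags 1 and 2, from 6 molecules in all. Foxp3-0 cells had 198 and 58.4 CPM in tags 3 and 4 and 99.2 and 299.7 CPM in tags 1 and 2, from 38 molecules. The means of 25.5 and 164 CPM gave a log2 ratio of -2.68, and every tag was lower in Foxp3-positive cells. Tag 4 rests on 3 molecules in Foxp3-positive and 2 in Foxp3-0 cells, at or under the floors of 49.0 and 87.6 CPM. In tag 3, the floor of 3 molecules was 36.1 CPM, and without that tag the call was lost (-2.16). After thinning the shares were 3.81% (1.05 to 9.47) and 5.26% (2.14 to 10.54), too few cells to set the classes apart by detection, and neutrophils had 0.0214%.

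Lef1 did not follow Tcf7 in every tag of the CD4 T cells. It had 205 and 229 CPM in Foxp3-positive cells of tags 3 and 4 and 214 and 118 CPM in tags 1 and 2. In Foxp3-0 cells it had 860.1 and 204 CPM in tags 3 and 4 and 278 and 487 CPM in tags 1 and 2. Tag 4 alone went the other way, so the log2 ratio of -1.26 was not called, and without tag 4 it was -1.60 and called lower. It was also called lower when Foxp3-0 cells with Il2ra were left out (-1.63). Shares with Lef1 were 26.4% of Foxp3-positive and 32.3% of Foxp3-0 cells, and 7.62 and 21.8% after thinning.

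Tox, Tbx21 and Bcl6 were not called between the CD4 classes. Tox had 313, 294 and 118 CPM in Foxp3-positive cells of tags 3, 4 and 2, against 335, 234 and 187 CPM in Foxp3-0 cells (log2 ratio -0.06). A larger share of Foxp3-positive cells carried Tox, 29.6 against 15.1%, and by tag 32.1, 23.5 and 33.3% against 15.3, 15.6 and 13.04%. At equal depth the shares were 13.5% (7.17 to 22.4) and 11.6% (6.47 to 18.7), with overlapping intervals. Tbx21 ranged from 33.7 to 490.2 CPM in Foxp3-positive and from 19.8 to 613 CPM in Foxp3-0 cells (log2 ratio -0.83), with tag 1 against the other 3 tags, and it was called lower without that tag (-1.26). Its 12 molecules in Foxp3-positive cells of tag 1 included 9 in 1 cell. Bcl6 had 72.3 and 98.0 CPM in Foxp3-positive cells of tags 3 and 4 and 253 and 152 CPM in tags 1 and 2, against 120.4 and 234 CPM and 198 and 262 CPM in Foxp3-0 cells (log2 ratio -0.50). Tag 1 alone was higher in Foxp3-positive cells, with 9 of its 13 molecules in 1 cell. Bcl6 was called lower without tag 1 (-0.94), without the cells with the most molecules (-1.46) and without cells that also carried another lineage (-1.78). Eomes had 3 molecules in Foxp3-positive and 24 in Foxp3-0 cells and was not tested. Its Foxp3-positive molecules were all in 1 cell of tag 1, and the 0 molecules of tags 3, 4 and 2 had floors of 36.1, 49.0 and 50.5 CPM.

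Of the regulatory T cell genes other than Foxp3, 6 of 9 were called higher in Foxp3-positive cells, with a median log2 ratio of 1.26: Il2ra, Ctla4, Ikzf2, Tnfrsf4, Tnfrsf9 and Lrrc32. Of 8 naive and memory genes, 2 were called higher (among them Cd27) and 2 lower (Il7r and Cd28). Macrophage transcripts summed to 48875 and 44609 CPM in Foxp3-positive cells of tags 3 and 4 and 79449 and 66039 CPM in tags 1 and 2, against 26164 and 35349 CPM in Foxp3-0 cells of tags 3 and 4 and 76017 CPM in those of tag 1, and they were the higher in Foxp3-positive cells of every tag. Their part in the differences was not tested. The call of Tcf7 remained when cells that also carried another lineage were removed.

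NK cells were set apart by Eomes. Of the 7 genes, 3 were called higher in NK than in CD8 T cells (Eomes, Bach2 and Bcl6) and 0 lower, while 18.3% of 339 genes were called higher and 18% lower. The median log2 ratio was 0.45 over the 7 genes and 0.12 over all genes tested.

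Eomes had 3226 CPM (2892 to 3589) and 2736 CPM (2238 to 3312) in NK cells of tags 3 and 4 and 4318 CPM (3589 to 5152) and 5939 CPM (5202 to 6751) in tags 1 and 2. CD8 T cells had 565 CPM (475 to 667) and 366 CPM (268 to 488) in tags 3 and 4 and 434 CPM (286 to 632) and 429 CPM in tags 1 and 2. The classes did not overlap in any tag, and the means of 4055 and 448 CPM gave a log2 ratio of 3.18, 9.05-fold higher in NK cells. Eomes was found in 70.1 and 70.6% of NK cells in tags 3 and 4 and 70.6 and 76.2% in tags 1 and 2, against 22.2 to 43.5% of CD8 T cells. The share held at equal depth, 64.8% (55.6 to 73.2) of NK cells against 20.4% (15.6 to 25.9) of CD8 T cells. Median depth was 796.5 molecules in NK and 1138 in CD8 T cells.

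Tbx21 was not called between NK and CD8 T cells by level, while more NK cells carried it at equal depth. NK cells had 1689.5 and 1094 CPM in tags 3 and 4 and 948 and 1421 CPM in tags 1 and 2, and CD8 T cells had 849 and 1121 CPM and 643 and 1286 CPM. The ranges overlapped, and the log2 ratio of 0.40 was not called. The share with Tbx21 at equal depth was higher in NK cells, 51.6% (42.4 to 60.8) against 33.6% (27.8 to 39.8), and it was 0.235% in neutrophils. Under 3 alternatives Tbx21 and Lef1 were both called higher in NK cells. The log2 ratios were 0.79 for Tbx21 and 0.92 for Lef1 with at least 4 NK genes required of an NK cell, 0.61 and 0.59 without the cells with the most molecules, and 0.62 and 0.89 without cells that also carried another lineage.

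Bcl6 had 391 and 130.3 CPM in NK cells of tags 3 and 4 and 456 and 659.9 CPM in tags 1 and 2, against 93.4 and 55.7 CPM and 129 and 257 CPM in CD8 T cells (log2 ratio 1.61). NK cells were the only T or NK class in which the share with Bcl6 stood above that of neutrophils beyond counting error: 18.0% (11.7 to 26.0) of NK cells at equal depth, against 5.99% (5.32 to 6.71) of neutrophils. Bach2 had 85.9 and 78.2 CPM in NK cells of tags 3 and 4 and 316 and 152 CPM in tags 1 and 2, against 48.7 and 15.9 CPM and 48.2 and 0 CPM (floor 85.8) in CD8 T cells (log2 ratio 2.49). It rests on 27 and 17 molecules, and the call was lost for want of molecules without tag 3 (3.09).

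The summed dendritic cell genes, but not the macrophage genes, were higher in NK cells of both anti-PD-1 tags than in those of the other tags. The dendritic cell list holds H2-Eb1, an MHC class II gene, and its sum is not particular to dendritic cells. In tag 3 that sum was 86165 CPM in macrophages, 93667 CPM in B cells and 37385 CPM in epithelial cells. The dendritic cell genes summed to 62311 and 64493 CPM in NK cells of tags 3 and 4 and 15657 and 25177 CPM in tags 1 and 2, against 17735 and 12509 CPM and 28052 and 7261 CPM in CD8 T cells. The macrophage genes summed to 16991 and 44637 CPM and 53114 and 34923 CPM in NK cells, against 21866 and 23802 CPM and 43485 and 6575 CPM in CD8 T cells. Their part in the differences was not tested. The calls of Eomes, Bach2 and Bcl6 remained when cells that also carried B cell, macrophage or epithelial genes were removed. That removal used no dendritic cell gene and does not bear on the dendritic cell sums.

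Tcf7, Lef1 and Tox were not called between NK and CD8 T cells. Tcf7 in NK cells was 1470.0 and 339 CPM in tags 3 and 4 and 3195 and 1142 CPM in tags 1 and 2, a wide spread. It was higher than in CD8 T cells of tag 1 and lower in the other tags, and without tag 1 it was called lower (-0.69). Lef1 in NK cells was level over the tags, 305 and 313 CPM in tags 3 and 4 and 246 and 279 CPM in tags 1 and 2, against 236, 254, 145 and 200.1 CPM in CD8 T cells (log2 ratio 0.45). Tox had 134 and 52.1 CPM in NK cells of tags 3 and 4 and 102 CPM in tag 2, against 366, 485 and 0 CPM in CD8 T cells (log2 ratio -1.57), and without tag 2 it was called lower (-2.20).

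CD4 T cells were low in both T-box factors. Of the 7 genes, 1 was called higher (Bach2) and 2 lower (Eomes and Tbx21) in CD4 than in CD8 T cells, while 27.3% of 374 genes were called higher and 17.1% lower. The median log2 ratio was 0.30 over the 7 genes and 0.33 over all genes tested. Eomes had 110.4 and 20.95 CPM in CD4 T cells of tags 3 and 4, 29.4 CPM in tag 1 and 0 in the 41 cells of tag 2 (floor 34.8 CPM), far under the CD8 values, with means of 40.2 and 448 CPM and a log2 ratio of -3.48. Tbx21 had 331 and 534 CPM in CD4 T cells of tags 3 and 4 and 128 and 151 CPM in tags 1 and 2, with a log2 ratio of -1.77 against CD8 T cells. Bach2 had 115 and 52.4 CPM in tags 3 and 4 and 58.9 and 116 CPM in tags 1 and 2, and a log2 ratio of 1.60, a call that was lost without tag 3 (1.83). Tcf7 (0.34), Lef1 (0.62), Bcl6 (0.30) and Tox (-0.21) were not called. Without cells that also carried another lineage Tcf7 (0.77) and Lef1 (1.18) were called higher, without tag 2 Tcf7 (0.75) and Bcl6 (0.77), and without tag 4 Lef1 (0.88).

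**Figure D3:**
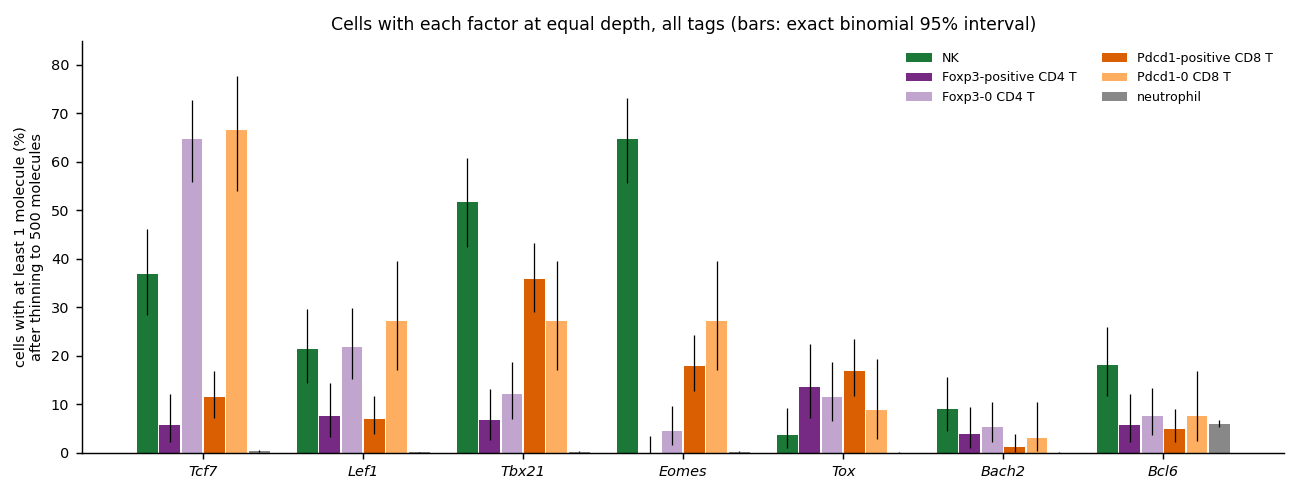
Share of cells with at least 1 molecule of each factor after every cell was thinned to 500 molecules, over all tags (Tox over tags 2 to 4). Bars are classes, with exact binomial 95% intervals; Tcf7 was left in 66.7% of Pdcd1-0 and 64.7% of Foxp3-0 cells, Eomes in 64.8% of NK cells, and Bcl6 in neutrophils about as often as in T cells.

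In order of mean level over tags, Tcf7 ran from Pdcd1-0 CD8 (5944 CPM) through Foxp3-0 CD4 (3525), NK (1536), Pdcd1-positive CD8 (490.1) and Foxp3-positive CD4 T cells (248). The ranges over tags of each neighbouring pair in that order overlapped. Tbx21 ran from NK (1288 CPM) through Pdcd1-positive CD8 (1056), Pdcd1-0 CD8 (637), Foxp3-0 CD4 (384) and Foxp3-positive CD4 T cells (216), again with overlapping neighbours. For Eomes, NK cells (4055 CPM) stood clear of Pdcd1-0 CD8 T cells (857, up to 1407), while Pdcd1-0 and Pdcd1-positive CD8 T cells (385) overlapped. The Pdcd1-positive CD8 T cells in turn stood clear of Foxp3-0 CD4 T cells (61.9, up to 189). Lef1 ran from Pdcd1-0 CD8 (824 CPM) through Foxp3-0 CD4 (457), NK (286), Foxp3-positive CD4 (191) and Pdcd1-positive CD8 T cells (97.2). Its tags in NK and Foxp3-positive cells did not overlap, at 246 CPM or more and 229 CPM or less, though their counting intervals did, and its other neighbours overlapped. Tox, Bach2 and Bcl6 had overlapping neighbours throughout the T and NK classes.

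Other cells of the tumours gave context for single genes. Bach2 had 229.6 and 414 CPM in B cells of tags 3 and 4 and 70.5 and 168 CPM in those of tags 1 and 2, and was found in 33.3% of the 81 cells. Its mean over tags was higher in B cells (221 CPM) than in any T or NK class, but in tag 1 NK cells (316 CPM) and Foxp3-0 CD4 T cells (99.2 CPM) stood above B cells, and in tag 2 Foxp3-0 CD4 T cells (299.7 CPM) did. B cells carried Lef1 unevenly, at 136 and 1346 CPM in tags 3 and 4 and 0 and 139.9 CPM in tags 1 and 2, where the 14 cells of tag 1 had a floor of 70.5 CPM. Epithelial cells, gated on Epcam in tags 3, 4 and 2, had Tcf7 at 73.2, 78.3 and 119 CPM, in 15.8% of 600 cells of 3022 median molecules, and in 3.65% at equal depth. Their Bcl6 was 198, 224 and 291 CPM, in 9.39% at equal depth.

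Within CD8 T cells, Lef1 was found mostly beside Tcf7, and Tox mostly apart from it. Lef1 was in 40 of the 95 cells with Tcf7 (42.1%, interval 32.0 to 52.7) and in 14.0% (9.25 to 19.9) of cells without. By tag the shares were 39.3 against 12.1% and 55.6 against 12.7% in tags 3 and 4, and 37.5 against 26.7% and 37.5 against 20% in tags 1 and 2, in the same direction each time. Tcf7-positive cells were the shallower set, with a median of 800 molecules against 1388, and at equal depth the shares were 30.8% (19.9 to 43.4) against 5.95% (3.01 to 10.4).

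Tox was in 11 of 87 Tcf7-positive cells (12.6%, 6.48 to 21.5) and in 33.5% (26.4 to 41.3) of Tcf7-0 cells. In tag 3 the shares were 18.0 against 33.3%, and in tag 4 0 of 18 against 40%, and tag 2 had no Tox in its 18 cells. At equal depth, 3.39% (0.413 to 11.7) of Tcf7-positive cells and 18.9% (13.3 to 25.7) of Tcf7-0 cells had Tox, 2 cells with both. Tbx21 was in 44.2% of Tcf7-positive and 65.4% of Tcf7-0 cells, and in 23.1% (13.5 to 35.2) and 37.3% (30.3 to 44.7) at equal depth. Eomes did not separate on Tcf7, at 34.7 against 31.8% and at 24.6 against 18.9% at equal depth.

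**Figure D4:**
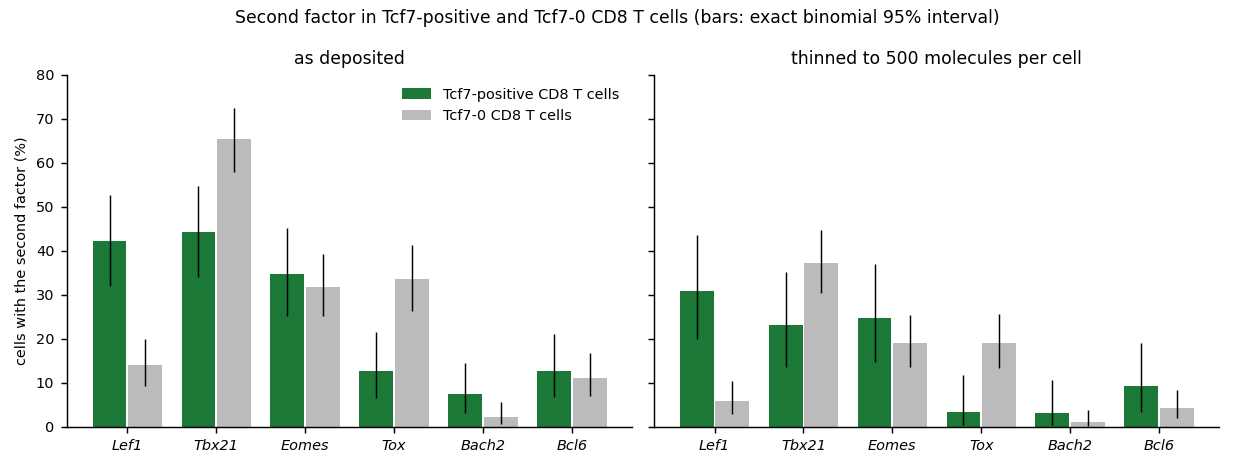
Share of CD8 T cells with a second factor among cells with and without a Tcf7 molecule, as deposited (left) and with every cell thinned to 500 molecules (right), over all tags (Tox over tags 2 to 4). Lines are exact binomial 95% intervals; Lef1 was more frequent in Tcf7-positive cells (42.1 against 14.0%) and Tox less frequent (12.6 against 33.5%), and both differences had the same direction at equal depth.

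The same pairs were read inside the Pdcd1 classes, where the gate no longer sets the mixture. In Pdcd1-positive cells, Lef1 was in 12 of 32 Tcf7-positive cells (37.5%, 21.1 to 56.3) and 11.4% (6.89 to 17.4) of Tcf7-0 cells, and at equal depth in 28.6% (11.3 to 52.2) and 4.29% (1.74 to 8.65). Tox was in 5 of 31 Tcf7-positive cells (16.1%, 5.45 to 33.7) and 35.6% (27.9 to 44.0) of Tcf7-0 cells, and at equal depth in 0 of 20, an upper bound of 16.8%, against 19.2% (13.3 to 26.4). The intervals of Tox overlapped both times, so inside this class the pair was not set apart beyond counting error. In Pdcd1-0 cells, where 9 of 74 had Tox, the pair of Tox and Tcf7 is not given. In Pdcd1-0 cells Lef1 was in 44.4% (31.9 to 57.5) of Tcf7-positive and 33.3% (14.6 to 57.0) of Tcf7-0 cells, with overlapping intervals. Eomes was in 56.7% (37.4 to 74.5) of Lef1-positive and 28.1% (21.3 to 35.8) of Lef1-0 Pdcd1-positive cells, where the Lef1-positive cells were the deeper, at 1731 against 1320.5 molecules. At equal depth the shares were 38.5% (13.9 to 68.4) and 16.4% (11.2 to 22.8), with overlapping intervals. Tox was in 44.6% (31.3 to 58.5) of Eomes-positive and 26.4% (18.8 to 35.2) of Eomes-0 cells, at median depths of 1507.5 and 1199 molecules, and at equal depth in 30% (14.7 to 49.4) and 14.2% (8.88 to 21.1), with overlapping intervals both times.

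Havcr2 (TIM-3, an inhibitory receptor of terminally exhausted cells) marked cells without Tcf7. Tcf7 was in 9.77% of CD8 T cells with Havcr2 and 58.2% of those without, and at equal depth in 6.12% (2.28 to 12.9) and 38.8% (31.0 to 47.0). Within Pdcd1-positive cells the shares were 5.93% (2.42 to 11.8) and 34.7% (23.9 to 46.9). Tox was no more frequent with Havcr2 at equal depth, at 14.9% in CD8 T cells with and without it.

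The genes that went with Tcf7 were read by splitting CD8 T cells of tags 3 and 4 into Tcf7-positive (61 and 18 cells) and Tcf7-0 cells, the tags with at least 10 cells of each kind. Among 5 other factors tested, 3 were called higher (Lef1, Eomes and Bcl6) and 1 lower (Tox) in Tcf7-positive cells, while 22.5% of 324 genes were called higher and 29.3% lower. Over the 5 factors the median log2 ratio was 1.19, against -0.26 over all genes, and Bach2, with 11 molecules in Tcf7-positive and 3 in Tcf7-0 cells, was not tested. Lef1 had 671 and 1703 CPM in Tcf7-positive cells of tags 3 and 4 against 91.8 and 88.6 CPM in Tcf7-0 cells (log2 ratio 3.72). Eomes had 1113 and 1393 CPM against 383.5 and 248 CPM (log2 ratio 1.99), while the shares of cells with Eomes over all tags were 34.7 and 31.8%. Tox had 246 CPM and 0 (floor 232 CPM) against 405 and 541 CPM (log2 ratio -1.95). Tbx21 had 769 and 1006 CPM against 875 and 1134.5 CPM and was not called. Bcl6, at 131 and 155 CPM against 81.0 and 44.3 CPM, rested on 10 molecules in Tcf7-positive cells and lay near its level in neutrophils.

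Tcf7-positive CD8 T cells carried more transcripts of naive and central memory genes. Of 7 naive and memory genes tested, 4 were called higher and 1 lower, with a median log2 ratio of 1.45 against -0.26 over all genes. Ccr7, a lymph node homing receptor, had 4681 and 4412 CPM in Tcf7-positive cells of tags 3 and 4 against 140.4 and 88.6 CPM in Tcf7-0 cells (log2 ratio 5.31). The lower gene was Il2rb, a receptor chain for IL-2 and IL-15, at a log2 ratio of -0.74.

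Of 7 inhibitory receptor genes, 4 were called lower in these cells and 0 higher, with a median log2 ratio of -1.70. Tigit (-0.51), Ctla4 (0.09) and Nt5e (0.06) were not called. Havcr2 had 311 CPM in Tcf7-positive cells of tag 3 and 0 in those of tag 4 (floor 232 CPM), against 1626 and 2216 CPM in Tcf7-0 cells. Cd244, an NK and T cell receptor, had 1 molecule in Tcf7-positive and 35 in Tcf7-0 cells. Pdcd1 had 1506 and 2477 CPM against 6822 and 7223 CPM (log2 ratio -1.82). Of 13 effector genes, 6 were called lower and 1 higher, with a median of -0.54: Gzma, a granzyme, had 3044 and 7198 CPM against 20509 and 19871 CPM (-1.98), Gzmb had a log2 ratio of -1.06, and Ccl5 was the higher one, at 80203 and 48916 CPM against 34823 and 21670 CPM (1.19).

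Of 12 other lymphoid factors, 5 were called higher and 3 lower in Tcf7-positive cells. The 2 highest were Gata3 (log2 ratio 2.16), which acts in T helper type 2 and early T cells, and Myc (2.01), a transcription factor that drives the growth of activated cells. Gata3 differed little in tag 3, at 131 against 113 CPM, and more in tag 4, at 851 against 106 CPM. The lowest were Ikzf2 (Helios), at 81.8 CPM and 0 (floor 232 CPM) against 324 and 292 CPM, and Prdm1, a driver of terminal differentiation, at 115 CPM and 0 against 270.1 and 328 CPM. Of 7 regulatory T cell genes, 6 were called lower, Ikzf2 and the IL-2 receptor gene Il2ra (180.05 CPM and 0 against 421 and 505 CPM) the most. Among the 6, 1 rested on 2 molecules in Tcf7-positive and 15 in Tcf7-0 cells of the tags compared. In tag 3 alone the calls of Gata3 (0.21), Il2rb (-0.54) and Cd244 (-2.72) were lost, that of Il2rb also with S100a8 held under 5% of molecules (-0.54), and in tag 4 alone those of Ikzf2 (-0.33) and Prdm1 (-0.50), there computed against the floor, were lost.

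Splitting CD8 T cells on Tox gave 89 called genes, against 168 when they were split on Tcf7. Tox-positive CD8 T cells (44 and 22 in tags 3 and 4) had Tcf7 at 781 CPM and 0 (floor 50.9 CPM), against 2055 and 1872 CPM in Tox-0 cells (log2 ratio -2.33). Lef1 had 184 and 84.8 CPM against 264 and 404 CPM (-1.32). These were the 2 factors called of 5 tested, and 13.1% of 314 genes were called higher and 15.3% lower. Over the 5 factors the median log2 ratio was -0.38, against -0.02 over all genes. Tbx21 (0.01), Eomes (-0.34) and Bcl6 (-0.38) were not called. None of 7 inhibitory receptor genes was called, with 0 higher and 0 lower and a median log2 ratio of 0.09. Of 7 naive and memory genes, 3 were called lower, among them Ccr7 (-0.77, nearly equal in tag 3 at 1240 against 1282 CPM). Of 12 effector genes, 2 were called higher, Prf1 (perforin, 1.11) and Ifng (interferon gamma, 0.78, equal in tag 3 at 2296 against 2287 CPM). Irf8 (1.01) and Runx3 (0.65) were the factors called higher, and Rora (-1.41) and Gata3 (-1.07) those called lower. Of 6 regulatory T cell genes, 3 were called higher, led by the costimulatory receptor Tnfrsf4 (1.38) and Il2ra (1.14). In tag 3 alone the calls of Ccr7 (-0.05), Gata3 (-0.28), Ifng (0.01), Rora (-0.19) and Runx3 (0.31) were lost. Without cells that also carried another lineage those of Il2ra (0.34), Runx3 (0.34), Ifng (0.67), Gata3 (-0.80) and Rora (-1.14) were lost. Without the cells with the most molecules those of Ccr7 (-0.52), Gata3 (-0.83), Rora (-1.04) and Runx3 (0.58) were lost, and with TMM scaling those of Ifng (0.70) and Runx3 (0.58). Tox-positive cells were deeper, at a median of 1430.5 molecules against 984.

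NK cells carried both T-box factors together. Tbx21 and Eomes were both found in 75 of 142 NK cells, and Eomes was in 81.5% (72.1 to 88.9) of Tbx21-positive and 52% (37.4 to 66.3) of Tbx21-0 cells. By tag the shares were 78.6 against 54.8% and 83.3 against 40% in tags 3 and 4, and 88.9 against 50% and 86.7 against 50% in tags 1 and 2. Depth ran the other way, 756.5 molecules in Tbx21-positive against 1194 in Tbx21-0 cells, and at equal depth the shares were 77.8% (65.5 to 87.3) against 50.8% (37.5 to 64.1). In CD8 T cells the same pair did not go together, at 30.8 against 35.7%, and at 21.4 against 19.9% at equal depth. Lef1-positive NK cells nearly all had Eomes, 37 of 40 (92.5%, 79.6 to 98.4) against 62.7% (52.6 to 72.1) of Lef1-0 cells, and 92.3 against 57.3% at equal depth. Tcf7-positive NK cells had Eomes in 80.4% (67.6 to 89.8), against 65.1% (54.1 to 75.1) of Tcf7-0 cells, with overlapping intervals. NK cells with Havcr2, 19 cells of 3465 median molecules, had Eomes in 31.6% (12.6 to 56.5) and Tbx21 in 21.1% (6.05 to 45.6), against 77.2 and 71.5% of those without. Other cells' RNA in such deep cells was not tested.

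In CD4 T cells, Lef1 was in 30.6% (23.8 to 38.1) of Tcf7-positive and 29.4% (22.3 to 37.3) of Tcf7-0 cells, at median depths of 598 and 977 molecules. At equal depth the shares were 22.8% (14.7 to 32.8) and 10.96% (6.40 to 17.2), with overlapping intervals. Within Foxp3-0 cells the shares were 31.5 and 34.7%, and 24.4% (15.8 to 34.9) against 17.02% (7.65 to 30.8) at equal depth. Tbx21 was less frequent beside Tcf7 in Foxp3-0 cells, 17.4% (11.7 to 24.5) against 40.8% (27.0 to 55.8), and 9.30% (4.10 to 17.5) against 17.02% (7.65 to 30.8) at equal depth, with overlapping intervals.

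The number of the 6 factors other than Tox found in a cell differed between classes. At least 2 were found in 76.1% of NK cells, 43.2% of Pdcd1-positive and 76.2% of Pdcd1-0 CD8 T cells, and 16.8% of Foxp3-positive and 52.5% of Foxp3-0 CD4 T cells, against 0.51% of neutrophils. None was found in 8.45% of NK cells, 15.8% of Pdcd1-positive and 4.76% of Pdcd1-0 CD8 T cells, and 42.4% of Foxp3-positive and 7.58% of Foxp3-0 CD4 T cells. The class with the fewest factors per cell, Foxp3-positive CD4 T cells, was deeper than Foxp3-0 CD4 T and NK cells.

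The pools were compared to ask whether the factors stood differently in tumours under anti-PD-1. A gene was called between pools where both tags of a pool lay beyond both tags of the other, the closest tags of the pools differed by at least 1.5-fold, and every tag had at least 10 cells. The cartridge and the treatment cannot be told apart here, since each pool is 1 cartridge. By that rule 0 of 5 factors tested were called in CD8 T cells, where 6.43% of 280 genes were called higher and 3.57% lower. In CD4 T cells 1 of 5 was called, Tbx21, where 10.7% of 289 genes were called higher and 6.23% lower. In NK cells 0 of 5 were called, where 4.92% of 244 genes were called higher and 7.38% lower. The median log2 ratio of the 5 factors was 0.03 in CD8 T cells, 0.76 in CD4 T cells and -0.78 in NK cells, against -0.07, 0.11 and -0.11 over all genes tested.

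Tcf7 in CD8 T cells had 1604 CPM (1449.9 to 1770.5) and 994 CPM (827 to 1184) in the anti-PD-1 pool and 595 CPM (419 to 819.9) and 2172.5 CPM (1712 to 2719) in the no-anti-PD-1 pool. The no-anti-PD-1 tags lay on either side of the anti-PD-1 tags, and the log2 ratio of the pools was -0.09. The share of CD8 T cells with Tcf7 was 38.1 and 24.7% in tags 3 and 4 and 34.8 and 44.4% in tags 1 and 2. Pdcd1-positive cells were 67.5 and 78.1% of CD8 T cells in tags 3 and 4 and 56.5 and 66.7% in tags 1 and 2. The part of that mix in the CD8 T cell values was not tested. Tbx21 (log2 ratio 0.03) and Eomes (0.11) in CD8 T cells likewise overlapped between pools. Lef1 was higher in both anti-PD-1 tags, at 236 and 254 CPM against 145 and 200.1 CPM, with the nearest tags 1.18-fold apart, and Bcl6 was lower in both, with the nearest 1.38-fold apart. Without any distance between the nearest tags, 23.9% of the genes in CD8 T cells were higher in both anti-PD-1 tags and 17.9% lower.

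Tox in CD8 T cells was found in the anti-PD-1 pool alone: 366 and 485 CPM in tags 3 and 4, in 44 of 160 (27.5%) and 22 of 73 cells (30.1%), and 0 of 18 cells in tag 2, which allows a share of up to 18.5% by the exact interval. With the 0 of tag 2 set to the floor of 3 molecules (85.8 CPM), the anti-PD-1 pool mean was 4.96-fold higher. That ratio depends on the floor chosen and is not a lower limit. Tag 1 was not analysed for Tox, so this gene was outside the call. In CD4 T cells, where tag 2 had 41 cells, Tox had 326 and 272 CPM in tags 3 and 4 and 139 CPM (72.0 to 244) in tag 2, in 20.6, 19.7 and 22.0% of cells, so the share of cells did not differ there.

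Tbx21 in CD4 T cells had 331 CPM (256 to 421) and 534 CPM (398 to 702) in the anti-PD-1 pool and 128 CPM (67.9 to 218) and 151 CPM (80.4 to 258) in the no-anti-PD-1 pool. The tag values of the pools did not overlap, though the counting intervals of the nearest tags, 3 and 2, did. These tags were 2.19-fold apart, and the pool means of 433 and 139 CPM gave a log2 ratio of 1.64. Markers of macrophages and of T cells differed between the pools as well. Macrophage genes were the lower in the anti-PD-1 tags, summing to 35625 and 41286 CPM in their CD4 T cells and 77751 and 54516 CPM in those of the no-anti-PD-1 tags. The 3 T cell receptor genes summed to 19714 and 14677 CPM against 8627 and 14486 CPM, and the part of either in the difference was not tested. Single cells weighed on it, with 13 of the 51 molecules of tag 4 and 9 of the 13 molecules of tag 1 in 1 cell each. The shares of cells with Tbx21 were closer, 20.6 and 27.3% in tags 3 and 4 and 13.9 and 19.5% in tags 1 and 2. The call was lost, at a log2 ratio of 1.16, when cells that also carried another lineage were removed. Tcf7 (2910.2 and 1414 CPM against 1030.5 and 1440.4 CPM) and Lef1 (587 and 220.0 CPM against 245 and 232 CPM) in CD4 T cells were highest in tag 3, while tag 4 was below the higher no-anti-PD-1 tag. Foxp3-positive cells were 31.1 and 51.5% of CD4 T cells in tags 3 and 4 and 47.2 and 43.9% in tags 1 and 2. The part of that mix in the CD4 T cell values was not tested. Bcl6 was lower in both anti-PD-1 tags, with the nearest 1.27-fold apart, where 24.6% of 289 genes were lower and 36% higher at any distance.

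**Figure D5:**
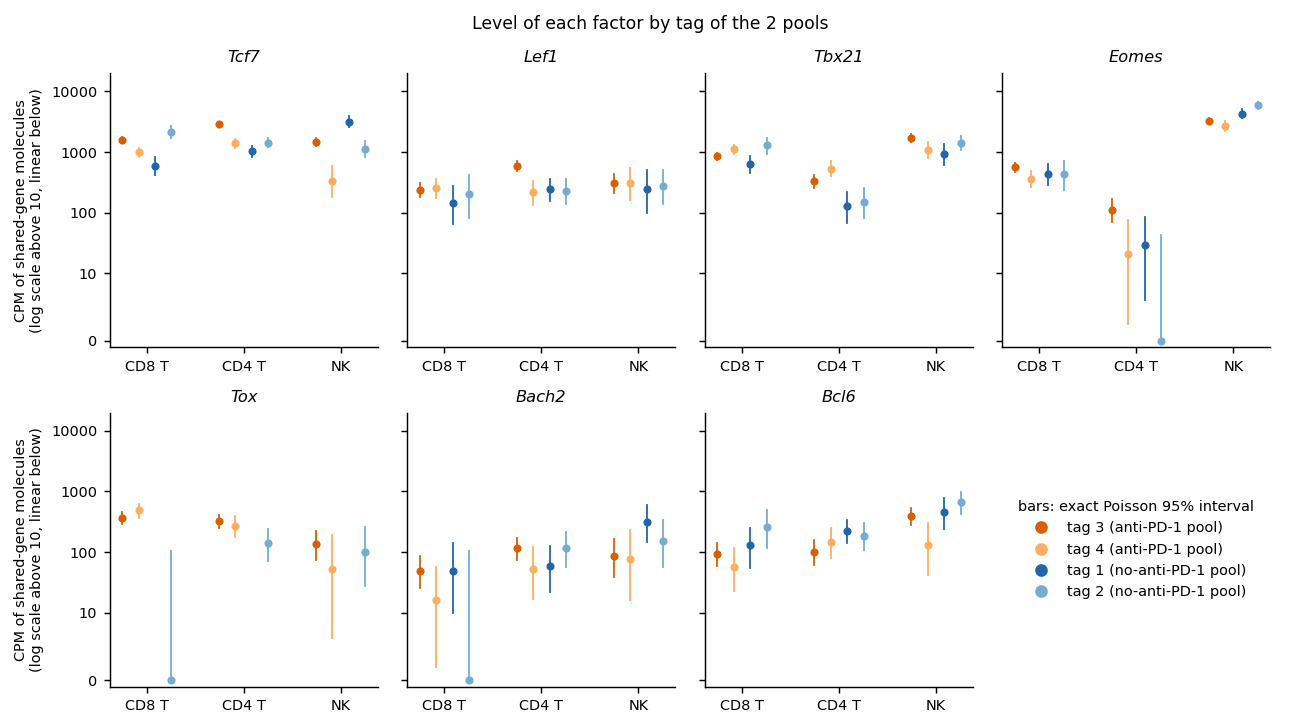
Level of each factor (CPM, log scale above 10 and linear below) in CD8 T, CD4 T and NK cells, by tag of the anti-PD-1 pool (tags 3 and 4, orange) and the no-anti-PD-1 pool (tags 1 and 2, blue). Bars are exact Poisson 95% intervals. The tag values of Tbx21 in CD4 T cells stand apart between the pools, at 331 and 534 against 128 and 151 CPM, while the intervals of tags 3 and 2 overlap. Tcf7 in CD8 T cells overlaps between the pools.

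In NK cells Eomes was lower in the anti-PD-1 pool, at 3226 and 2736 CPM against 4318 and 5939 CPM, with the nearest tags 1.34-fold apart and a log2 ratio of -0.78 that was not called. The share of NK cells with Eomes was 70.1 and 70.6% against 70.6 and 76.2%. Tcf7 did not separate the pools, at 1470.0 and 339 CPM against 3195 and 1142 CPM. Bcl6 was lower as well, at 391 and 130.3 against 456 and 659.9 CPM, with the nearest tags 1.17-fold apart. Without any distance, 18.4% of 244 genes in NK cells were lower in both anti-PD-1 tags and 16.8% higher. Removal of the cells with the most molecules, of cells with another lineage, or of NK cells with fewer than 4 NK genes brought Eomes past the call, with log2 ratios of -0.85, -0.85 and -1.17.

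Genes whose level ran most like that of a factor were listed over the 5 T and NK classes by tag, 19 class and tag points with at least 10 cells for 6 factors and 14 for Tox. The points share libraries and classes, so the coefficients are a description. For Tcf7 these were Btg1 (Pearson r of log2 values 0.860), Mbp (0.851) and Pik3ip1 (0.827), and for Lef1 Arl4c (0.828), Btg1 (0.770) and Slc9a9 (0.720, 14 points). For Tbx21 they were Ctsw (0.859), Ccl5 (0.742) and Fasl (0.738), and for Eomes Ccl5 (0.903), Cd7 (0.868) and Dusp2 (0.848). Bach2 came with Slc9a9 (0.687, 14 points), Ccnd2 (0.677) and Fam65b (0.661), and Bcl6 with the early response genes Fosb (0.867) and Egr1 (0.730) and with Lmna (0.688). Tox had partners about as weak as those of Bach2: Cxcr2 (0.675), Lipa (0.665) and Il1a (0.647). Cxcr2, which is on the list of neutrophil genes, and Lipa had only 53 and 31 molecules in these cells.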

How the data were processed

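The deposited values are whole-number counts of molecules for each cell and gene, in 1 table per sample tag. Per the file headers they come from version 1.12.1 of the BD Rhapsody targeted pipeline, and the file titles name its corrected (DBEC) molecules. The submitters' processing notes list Seurat 3.2.0. For the aligner and the build, the sources used here give nothing. From these counts, 2 samples of 2 tags each, with 12018 cells and 12416134, 3074544, 5318288 and 2993684 molecules of the 396 shared genes in tags 3, 4, 1 and 2, were analysed. The genes, lists and tests were chosen with earlier results of these data known.

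Cells with S100a8 at 10% or more of molecules were kept out of the lymphocyte classes. Those with S100a9 and with no Cd3, Cd79 or C1q molecule were called neutrophils. Cells rich in S100a8 that held a Cd3 molecule are therefore not part of the neutrophil background. T cells had at least 2 Cd3e, Cd3d and Cd3g molecules, CD8 T cells at least 2 Cd8a and Cd8b1 molecules and no Cd4, and CD4 T cells at least 1 Cd4 molecule and none of Cd8a or Cd8b1. NK cells had at least 3 of 20 NK genes, of which 15 are on the panel, and no Cd3, Cd4, Cd8b1 or Cd79 molecule. No doublets were called, and 1 alternative removed cells above the 95th percentile of molecules of their tag. An alternative without gated cells that also carried B cell, macrophage or epithelial genes was added after the data were seen. The other alternatives changed the gates, the scaling (edgeR 4.0.16 TMM factors), the thinning depth, the thresholds and the tags.

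Genes outside the 7 were named by rule in the Tcf7 and Tox comparisons (from each list the 2 called genes with the largest fold in each direction) and in the likeness lists (the 3 highest Pearson r of log2 CPM plus 10). Genes of the lists named in the class comparisons were chosen after their values were seen. Gene positions are from the GENCODE annotation of GRCm38. Python 3.11.15, numpy 2.4.6, pandas 2.3.3, scipy 1.17.1 and matplotlib 3.10.9 were used. The call rule between classes was tested on simulated data, and the call rule between pools was not. Some genes of the lists are not reported here by name.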

Additional observations from a re-analysis of the deposited data

How the results depend on the processing

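The lower Tcf7 and Lef1 of Pdcd1-positive CD8 T cells and the lower Tcf7 of Foxp3-positive CD4 T cells kept their calls under every alternative run. Of 1167 values recomputed, 992 stayed within the counting error, 173 moved beyond it and 2 reversed. The reversed ones were Cd244 in the Tcf7 comparison, at a log2 ratio of 0.80 without tag 3 (0 against 15 molecules, computed against the floor), and Eomes among Tbx21-positive minus Tbx21-0 CD8 T cells, at 1.55 percentage points when thinned to 500 molecules. A log2 ratio was counted as reversed only where its main value was called, so sign changes of ratios not called are outside the 2. Tcf7 between NK and CD8 T cells went from 0.20 to -0.69 without tag 1. Between the pools, Tcf7 in CD8 T cells went from -0.09 to 1.13 without tag 2.

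Counts of the 7 genes called moved as follows. Between the Pdcd1 classes, 5 became 3 without cells above the 95th percentile of molecules and 2 with tags of 5 cells admitted. Between the Foxp3 classes, 2 became 4 without tag 1 and 1 without tag 3. Between NK and CD8 T cells, 3 became 5 without cells above the 95th percentile, with at least 4 NK genes, and without cells of another lineage. Between CD4 and CD8 T cells, 3 became 5 without tag 2 and without cells of another lineage. Genes called in the Tox comparison fell to 47 at 2-fold, against 89.

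Between the pools, the count in CD8 T cells was 2 without tag 1, 2 without tag 2 and 1 without cells of another lineage, against 0. In CD4 T cells it was 2 without tag 1, 2 without tag 2, 4 without tag 4 and 0 without cells of another lineage, against 1. In NK cells, against 0, it was 2 without tag 1, 1 without tag 2 and 3 without tag 3, and it was 1 without cells above the 95th percentile, with a minimum of 1 molecule, with at least 4 NK genes and without cells of another lineage. The cause was not tested beyond the smaller number of tags or cells. TMM scaling moved the log2 ratios of the 7 genes by 0.14 to 0.33 between the Pdcd1 classes. In the other comparisons of classes and pools it moved them by -0.29 to 0.25, and it changed no call of theirs. No paired analysis was possible because, between the pools, each group is 1 sample. Comparisons of classes were made within tags, without a test. Depth limits Bach2, Tox in tag 2 and every value of classes with under 20 cells.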
